A study of Mus musculus with 7 samples.

Results

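The calcineurin regulators and MEF2 factors measured here are 8 genes of hypertrophic signalling in heart muscle: Rcan1 and Rcan2, Ppp3ca, Ppp3cb and Ppp3r1, and Mef2a, Mef2c and Mef2d. They were chosen by name from the 12393 genes with a probe set of their own, and every probe set that the platform annotation assigns to exactly 1 of them was taken, which gave 23 probe sets of the 22626 on the array. A probe set is a group of short oligonucleotides that together read the transcripts of a gene. A further probe set that the annotation assigns to Ppp3r1 together with a second gene was left out. Of the 23, 19 lay above the 40th percentile of their own array on at least 3 arrays and were tested, at least 1 for each gene. The other 4 (1 of Ppp3r1, 1 of Mef2a and 2 of Mef2c) lay below that level on all 7 arrays.

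Left ventricles were taken from 7 male mice at 21 months of age. Of these, 3 were labelled eNOS knockout, (-/-) for the endothelial nitric oxide synthase gene Nos3, and are called M4, M10 and M140 after their mouse numbers. The other 4 were labelled wild type (+/+), M23, M125, M128 and M158. Each mouse had 1 MOE430A array, and the strain, the allele and any exercise the mice had done are unstated in the labels. The labels give as the purpose a search for transcripts that go with heart failure in old knockout males.

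Calcineurin is a protein phosphatase switched on by calcium and calmodulin. It has a catalytic subunit (encoded by Ppp3ca or Ppp3cb in the heart) and a calcium-binding regulatory subunit (Ppp3r1). It removes phosphate from NFAT transcription factors, which then enter the nucleus and, together with factors such as GATA4 and MEF2, drive genes of cardiac hypertrophy. Rcan1 encodes a protein that binds calcineurin and restrains it. Its gene has an upstream start and an internal start, and the shorter transcript from the internal start is itself induced by calcineurin and NFAT, so that Rcan1 RNA is widely read as feedback from calcineurin activity. The MEF2 factors are DNA-binding regulators of muscle genes that respond to calcium through kinases, class II histone deacetylases and calcineurin.

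The sequences before the 2 RefSeq starts of Rcan1 are shown because the feedback readout rests on the internal one. Both are from GRCm38.p6, on the minus strand, as the 250 bases before the start, at chr16:92466170-92466419 for the upstream start and chr16:92400079-92400328 for the internal start. Capitals mark each match to the NFAT core GGAAA, read on either strand and therefore also as TTTCC, and to the AP-1 motif TGANTCA, which reads the same on both strands. The matches did not overlap each other.
Rcan1 upstream start: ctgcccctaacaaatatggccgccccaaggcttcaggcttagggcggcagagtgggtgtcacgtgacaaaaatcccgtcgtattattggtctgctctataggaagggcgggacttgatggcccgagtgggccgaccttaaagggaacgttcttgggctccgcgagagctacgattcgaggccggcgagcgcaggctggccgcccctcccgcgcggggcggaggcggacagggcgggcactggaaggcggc
Rcan1 internal start: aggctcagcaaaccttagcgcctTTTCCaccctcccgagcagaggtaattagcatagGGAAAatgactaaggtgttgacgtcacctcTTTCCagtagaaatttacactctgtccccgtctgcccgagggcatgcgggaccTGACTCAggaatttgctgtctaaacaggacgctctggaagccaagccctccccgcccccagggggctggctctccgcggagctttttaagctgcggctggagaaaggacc

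The internal window held 3 NFAT cores, whose first bases lie at -227, -193 and -163 relative to the start, and 1 AP-1 motif, whose first base lies at -110. The upstream window held 0 of either. Among all 32851 windows of this length in the RefSeq table, 6.39% held at least 3 NFAT cores, 6.75% held an AP-1 motif and 3.82% held both motifs at least once. RefSeq windows were matched for 7 of the 8 genes (12 windows); Ppp3ca had none. The consensus motif of the MEF2 factors, searched as a palindrome of 10 bases, was found in 0 of the 12 windows and in 2.92% of all windows. These matches describe the letters in each window and not bound sites, and the sources used here do not say which of the 2 Rcan1 transcripts each probe set reads.

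Over the whole table the arrays were alike in level, with a median intensity of 671 to 699. The lowest value was 86.5 to 92.3 and the highest, an upper limit shared by at least 51 probe sets on each array, was 44145 to 45552. None of the 23 probe sets reached that limit on any array. Of 8 ventricular muscle markers, 6 stood at the limit on every array. The atrial light chain Myl7 was bright on 2 arrays, knockout M10 (17557) and wild-type M125 (16097). It read 2926 on wild-type M128 and 356 to 1207 on the rest. Hybridization took place on 4 days, and only day 1 held both groups, as knockout M140 and wild-type M128. The 2 wild-type arrays of day 4, M23 and M158, had the lowest ratios of 5' to 3' Gapdh signal, 0.0978 and 0.34 against 0.521 to 0.777 elsewhere. The 3' signal stood at the upper limit on every array except M158, where it was close to it (45466). The ratios are therefore upper bounds, and their order is that of the 5' signal, 4456 on M23, 15460 on M158 and 23125 to 34559 elsewhere. Nos3 read 1135 to 1413 on the knockout arrays and 791 to 1163 on the wild-type arrays. No source used here places its probe set relative to the disrupted part, and its level therefore does not check the labels.

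Rcan1 read higher in 2 of the 3 knockout hearts and at the wild-type level in the third, and the calcineurin regulatory subunit Ppp3r1 read lower in all 3. Mef2a read lower on all 4 of its tested probe sets, 1 of which (1427186_a_at) passed the filter through wild-type arrays alone. Rcan2 read somewhat higher on its bright probe set, and the 95% intervals of all Mef2c and Mef2d probe sets included 0. By limma, 0 of the 19 had an adjusted p under 0.05, as did 0.0% of the 13836 tested probe sets. At an unadjusted p under 0.05 there were 5 of 19 (26.3%), against 11.8% of all tested. Of these, 2 were higher in the knockout (background 6.57%) and 3 lower (background 5.25%), and 2 of those 3 were probe sets of the same gene, Mef2a. The Mef2a probe sets counted include 1427186_a_at, so the counts of 5 and 3 were partly fixed by the filter. The groups did not overlap for 2 of 19 (10.5%), close to the 9.3% of all tested. Of these, 1 had every knockout array above (4.97% of all tested) and 1 had every knockout array below (4.34%). The median log2 difference was -0.08 over the 19 and 0.00 (-0.0023) over all tested probe sets. In whole tissue, fewer cells of a type and less RNA per cell cannot be told apart.

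**Figure D1:**
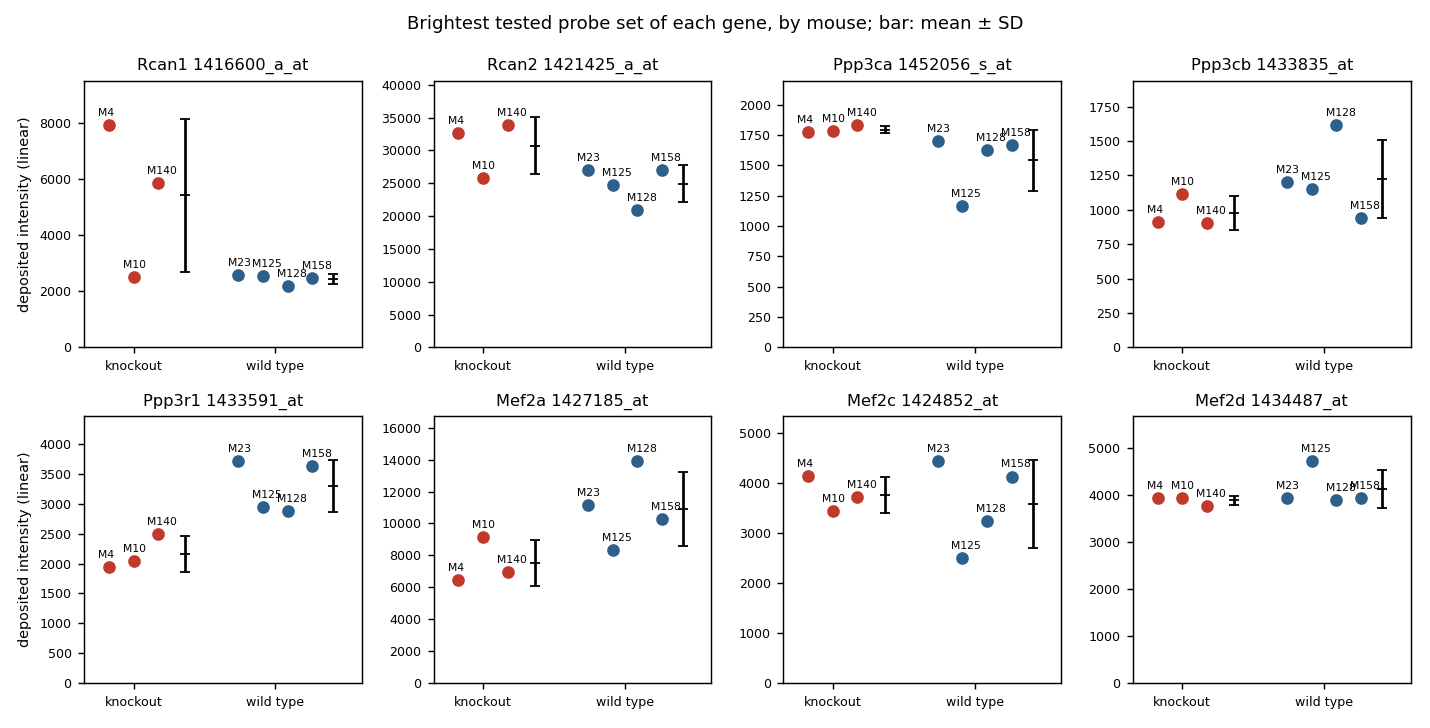
Deposited intensity (linear axis from 0) of the brightest tested probe set of each of the 8 genes, with 1 point per mouse labelled by its number; the bar beside each group is the mean ± SD (n = 3 knockout, n = 4 wild type). Rcan1 is high on knockout M4 and M140 (7896 and 5844) and not on knockout M10 (2490), and the 3 knockout values of Ppp3r1 all lie under its 4 wild-type values.

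Rcan1 read 7896 on knockout M4, 2490 on knockout M10 and 5844 on knockout M140 with its bright probe set 1416600_a_at. Wild-type arrays read 2579 (M23), 2530 (M125), 2186 (M128) and 2454 (M158). The wild-type values lay within a factor of 1.18 of each other, the knockout values within 3.17, and knockout M10 fell inside the wild-type range. The knockout arrays averaged 5410 ± 2729 (SD, n = 3) and the wild-type arrays 2437 ± 175 (SD, n = 4). The difference on the scale of log2(intensity + 16) was 0.99 ± 0.35 (SE), with a 95% interval of 0.19 to 1.80. Its adjusted p was 0.341 by limma. An exact permutation test (two-sided, 35 splits of 7 arrays) gave p = 0.0857, where the smallest p it can give is 0.0286. On the day that held both groups, knockout M140 exceeded wild-type M128 by 1.41. This is 1 pair, and M128 had the lowest Rcan1 value of the 7 arrays.

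Knockout M10 decided the size of the Rcan1 difference. Without it the difference was 1.48 ± 0.17 (SE; adjusted p = 0.0323 by limma), in a fit where 0.535% of all tested probe sets passed. With limma array weights, which give less weight to arrays that depart from their group, it was 1.40 with an adjusted p of 0.0447, in a fit where 4.47% of all tested probe sets passed. Without knockout M4 it was 0.65 with an adjusted p of 0.877. Without M10 and M125, the arrays with the most Myl7, it was 1.49 with an adjusted p of 0.1.

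The second Rcan1 probe set, 1416601_a_at, did not show this pattern. It read 569, 529 and 532 on knockout M4, M10 and M140 and 509 to 560 on the wild-type arrays, close to the 40th percentile of the arrays (514 to 542). Its difference was 0.04 ± 0.07 (SE; adjusted p = 0.886 by limma). Both probe sets are of the type that reads alternative transcripts of 1 gene. The mean of both gave a difference of 0.52, with an exact permutation p of 0.0857.

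Part of the fibroblast marker list was high on the knockout arrays where Rcan1 was high. The summed intensity of its 6 genes was 44848 on knockout M4 and 57707 on knockout M140, and 19421 on knockout M10. The 4 wild-type sums were 24848 to 37968. Much of the difference among the knockout arrays lay in the collagen Col3a1, at 17213, 1691 and 19869 on M4, M10 and M140. Col1a1, Col1a2, Lum and Pdgfra were also lowest of the knockout arrays on M10. The spread of Pdgfra was small, at 1264, 1114 and 1244 on M4, M10 and M140 and 1056 to 1131 on the wild-type arrays. The proteoglycan Dcn was not lowest on M10, at 10210, 10573 and 18266. On the wild-type arrays Lum read 3656 to 9588 and Dcn 7538 to 19329, both highest of all arrays on M128. By mean log2 difference, 4 of the 6 fibroblast markers were higher in the knockout and 2, Lum and Dcn, were lower. The summed level of 6 macrophage markers was 19003 to 21447 on the knockout arrays, M10 included, and 14284 to 17487 on the wild-type arrays. Most of this sum was Csf1r, at 10895 to 12002 and 7150 to 9336. Of the 6, 4 lay higher on every knockout array (in either direction, the groups did not overlap for 10.2% of all genes). The groups overlapped for Adgre1 (0.10) and C1qa (-0.05). For endothelial markers the ranges were 11142 to 12990 and 10212 to 14493. Of the 4 atrial markers, Nppa is also a hypertrophy gene and stood at the upper limit on M4 and M140. The other 3 were brightest in sum on M10 (34091) and M125 (41443), with 11735 on M128 and 1997 to 4269 on the rest. Every marker of these 4 lists was tested, and none was below the 40th percentile on all arrays. With Myl7 as a covariate the Rcan1 difference was 1.04 (adjusted p = 0.264 by limma). The part of the fibroblast, macrophage and endothelial markers in the Rcan1 result was not tested.

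The genes whose values over the 7 arrays were most like those of Rcan1 were sought among 1621 genes with an SD of at least 0.3 on the log2 scale. They were Mllt11 (Pearson's r = 0.995), Cox19, a copper chaperone for assembly of cytochrome oxidase (0.992), Itgbl1, a secreted integrin beta-like protein (0.984), Pmepa1, a TGF-beta-induced inhibitor of SMAD signalling (0.982), and Comp, a cartilage and scar matrix protein (0.981). Comp read 6604, 869 and 5427 on knockout M4, M10 and M140 and 499 to 836 on the wild-type arrays. Because they were chosen for likeness to Rcan1, all 5 were high on M4 and M140, the 2 arrays that carried Rcan1, and low on M10. The lowest correlations were those of Hopx, a homeodomain-only regulator of cardiac growth (-0.963), Scara5 (-0.946) and the matrix protein Efemp1 (-0.935). Hopx read 17196, 31108 and 15969 on knockout M4, M10 and M140 and 28488 to 35291 on the wild-type arrays. These correlations describe 7 arrays of 2 groups, and 5.18% of the genes compared reached 0.9 or more.

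Classical hypertrophy transcripts read above every wild-type array on knockout M10, where Rcan1 did not. M10 was still the lowest knockout array for each of those tested except Myh7. Nppa, the atrial natriuretic peptide, read 44868, 37741 and 45540 on knockout M4, M10 and M140 against 6717 to 32820 on the wild-type arrays. Nppb, the brain natriuretic peptide, read 43350 on M10 against at most 35703 on a wild-type array. Ankrd1, a stress-induced ankyrin repeat protein, read 40616 on M10 against at most 23519 on a wild-type array. Acta1, the skeletal actin re-expressed in loaded ventricles, separated M10 from the other knockouts as Rcan1 did, at 35613, 7285 and 23534 on M4, M10 and M140 against 1315 to 5216 on the wild-type arrays. Fhl1 did so too, at 17897, 10989 and 21455 against 9255 to 10718, so that M10 lay barely above the wild-type arrays. Of 8 calcineurin-responsive and hypertrophy genes listed, 6 were tested, and all 6 lay higher on every knockout array than on every wild-type array (in either direction, the groups did not overlap for 10.2% of all genes), with 0 past an adjusted p of 0.05 by limma and 6 at an unadjusted p under 0.05 (background 6.74% higher). Their median log2 difference was 1.59 against 0.00 (-0.0027) for all tested genes. The list was chosen with earlier results of these data known, so these counts and this median describe it and are no test. Nppa, Nppb, Myh7 and Ankrd1 were at the upper limit on 2 arrays each, so that their differences are understated. For Nppa, Nppb and Ankrd1 these arrays were M4 and M140, so that how far M10 lay below them cannot be read. Atrial muscle also makes Nppa, and M10 was an array with high Myl7; its part in the Nppa level was not tested.

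**Figure D2:**
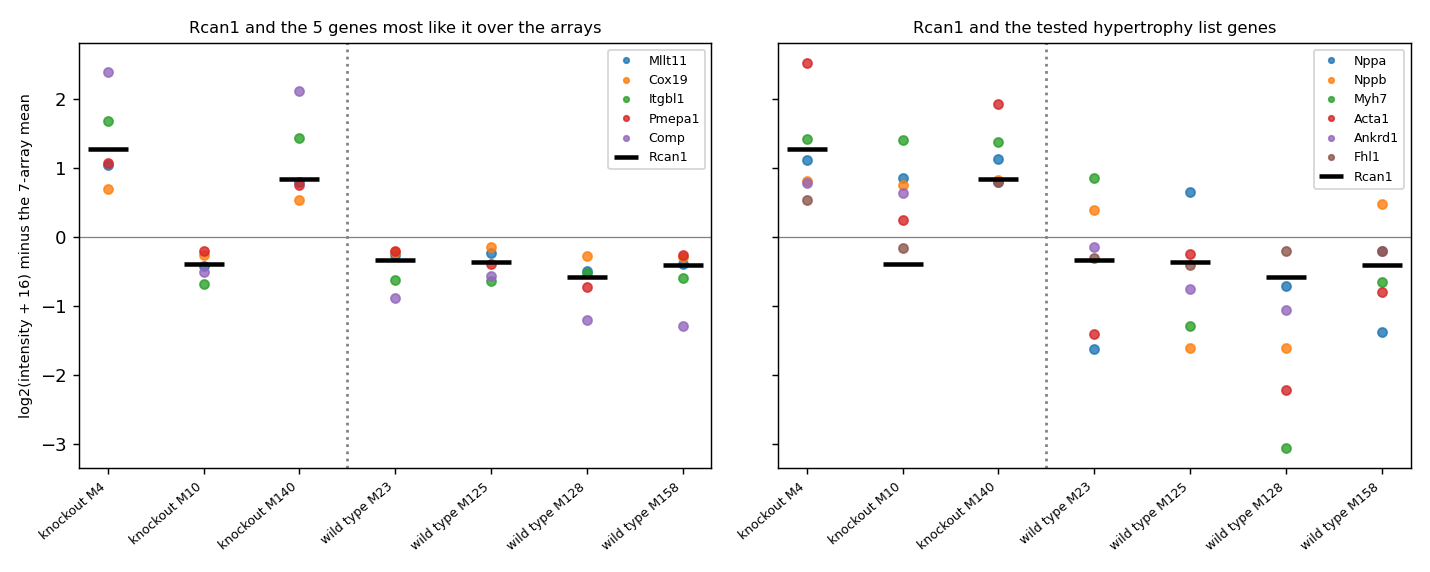
Each point is log2(intensity + 16) of a gene on an array minus that gene's mean over the 7 arrays; black bars are Rcan1 (1416600_a_at), and the dotted line divides knockout from wild-type mice. At left, Rcan1 and the 5 genes most like it are high on knockout M4 and M140 and below their own means elsewhere; at right, 5 of the 6 tested hypertrophy genes are above their mean on knockout M10, where Rcan1 is below its own.

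Rcan2, the second member of the regulator family, is expressed in muscle and brain and is not known for the feedback induction of Rcan1. Its bright probe set 1421425_a_at read 32585, 25808 and 33811 on knockout M4, M10 and M140. Wild-type arrays read 27022 (M23), 24788 (M125), 20968 (M128) and 27022 (M158). As for Rcan1, knockout M10 was the lowest of its group and lay inside the wild-type range. The difference was 0.30 ± 0.12 (SE), with a 95% interval of 0.01 to 0.58 (adjusted p = 0.406 by limma). On day 1 knockout M140 exceeded wild-type M128, the lowest array of all, by 0.69. The other probe set, 1450243_a_at, read 1814 to 2230 in the knockout and 1295 to 2374 in the wild type, with a difference of 0.18 ± 0.21 (SE). Single wild-type arrays moved it, to 0.045 without M23 and 0.33 without M125.

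Ppp3r1 encodes calcineurin B, the calcium-binding regulatory subunit that the catalytic subunits need for activity. Its probe set 1433591_at read 1944, 2041 and 2497 on knockout M4, M10 and M140. Its wild-type values were 3723 (M23), 2948 (M125), 2889 (M128) and 3642 (M158), so that every knockout array lay below every wild-type array. The knockout arrays averaged 2161 ± 296 (SD, n = 3) and the wild-type arrays 3301 ± 443 (SD, n = 4). They differed by -0.61 ± 0.15 (SE) on the log2 scale, with a 95% interval of -0.96 to -0.25. The unadjusted p of 0.0043 was the smallest of the 19, and the adjusted p was 0.254 by limma. With array weights the difference was -0.75 and the adjusted p was 0.0318. The difference was smaller on the day that held both groups, at -0.21 for knockout M140 against wild-type M128. The 2 highest wild-type values were those of M23 and M158, the arrays of day 4 with the lowest 5' Gapdh signal. Without these 2 arrays the difference was -0.44, with an adjusted p of 0.368 by limma. The other Ppp3r1 probe set, 1421786_at, read 156 to 178 on all arrays and was too dim to test.

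The catalytic subunits showed no common direction. Of the 3 Ppp3ca probe sets, 1426401_at read 1229 to 1435 in the knockout and 1435 to 1606 in the wild type, a log2 difference of -0.15 with a 95% interval of -0.37 to 0.08. For 1438478_a_at the difference was -0.10, with an interval of -0.35 to 0.14. The third, 1452056_s_at, read 1771, 1779 and 1828 on the knockout arrays. Its wild-type values were 1703 (M23), 1163 (M125), 1625 (M128) and 1665 (M158). It separated the groups in the opposite direction, at 0.23 with an interval of -0.10 to 0.57 and an adjusted p of 0.592 by limma. Probe sets of this type can also read transcripts of related genes, and most of its wild-type spread came from M125, without which the difference was 0.11. Of Ppp3cb, 1433835_at read 912, 1116 and 901 on knockout M4, M10 and M140. Its wild-type values were 1201 (M23), 1150 (M125), 1613 (M128) and 938 (M158). The difference was -0.30 ± 0.17 (SE; adjusted p = 0.561), with overlapping groups, and -0.83 on day 1, where wild-type M128 had the highest value of all. Without M128 it was -0.16. The dimmer 1427468_at differed by 0.03, with an interval of -0.35 to 0.41.

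Mef2a, a MEF2 factor of the adult heart linked to mitochondrial and contractile gene expression, read lower in the knockout on each of its 4 tested probe sets. The brightest, 1427185_at, read 6468, 9168 and 6934 on knockout M4, M10 and M140. Wild-type arrays read 11181 (M23), 8334 (M125), 13932 (M128) and 10302 (M158). The groups overlapped only through knockout M10 and wild-type M125, the arrays with the most Myl7. The knockout arrays averaged 7523 ± 1443 (SD, n = 3) and the wild-type arrays 10937 ± 2324 (SD, n = 4). They differed by -0.53 ± 0.20 (SE) on the log2 scale, with a 95% interval of -0.98 to -0.08 and an adjusted p of 0.371 by limma. Without M10 and M125 it was -0.80, with an adjusted p of 0.204. With Myl7 as a covariate it was -0.54.

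The other tested Mef2a probe sets, which read the same gene and are not independent of it, differed by -0.60 (1427186_a_at), -0.49 (1452347_at) and -0.27 (1421252_a_at). Of these, 1427186_a_at had an unadjusted p under 0.05 and adjusted p of 0.408 by limma, and it lay above the 40th percentile on only 3 arrays. All 3 were wild type (M125, M128 and M158), so that its lower reading in the knockout was partly fixed by the filter. Wild-type M128 was the highest array on 3 of the 4 probe sets, at 13932 for 1427185_at, 3404 for 1452347_at and 1026 for 1421252_a_at. On day 1 knockout M140 read below M128 by -1.01, -0.50, -0.999 and -0.76 for 1427185_at, 1427186_a_at, 1452347_at and 1421252_a_at. The Mef2a difference of 1452347_at and 1421252_a_at rested largely on M128. Without that array the differences were -0.41 for 1427185_at (adjusted p = 0.432 by limma), -0.52 for 1427186_a_at, -0.24 for 1452347_at and -0.058 for 1421252_a_at.

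Mef2c is the MEF2 factor required for formation of the embryonic heart, and it is also expressed in endothelial and immune cells. Its brightest probe set 1424852_at read 4139, 3433 and 3712 on knockout M4, M10 and M140. Its wild-type values were 4444 (M23), 2489 (M125), 3243 (M128) and 4130 (M158). The difference was 0.10 with a 95% interval of -0.38 to 0.59, and the groups overlapped fully. The dimmer 1451506_at differed by -0.26, with an interval of -0.52 to 0.01. The third, 1421027_a_at, varied most within the knockout group, from 332 on M10 to 1080 on M140, and differed by -0.08 with an interval of -0.90 to 0.75. Day 1 gave 1.18 for it, the largest disagreement of any of the 19 probe sets between the day with both groups and the comparison of all arrays. Mef2d, which carries stress-dependent remodelling in adult heart muscle, read 3770 to 3948 in the knockout and 3892 to 4732 in the wild type on 1434487_at. Its difference was -0.08 with an interval of -0.37 to 0.20, and -0.04 with an interval of -0.31 to 0.23 on 1421388_at. Its values were therefore the least spread of the MEF2 factors, with a factor of 1.26 and 1.22 between the highest and lowest array.

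**Figure D3:**
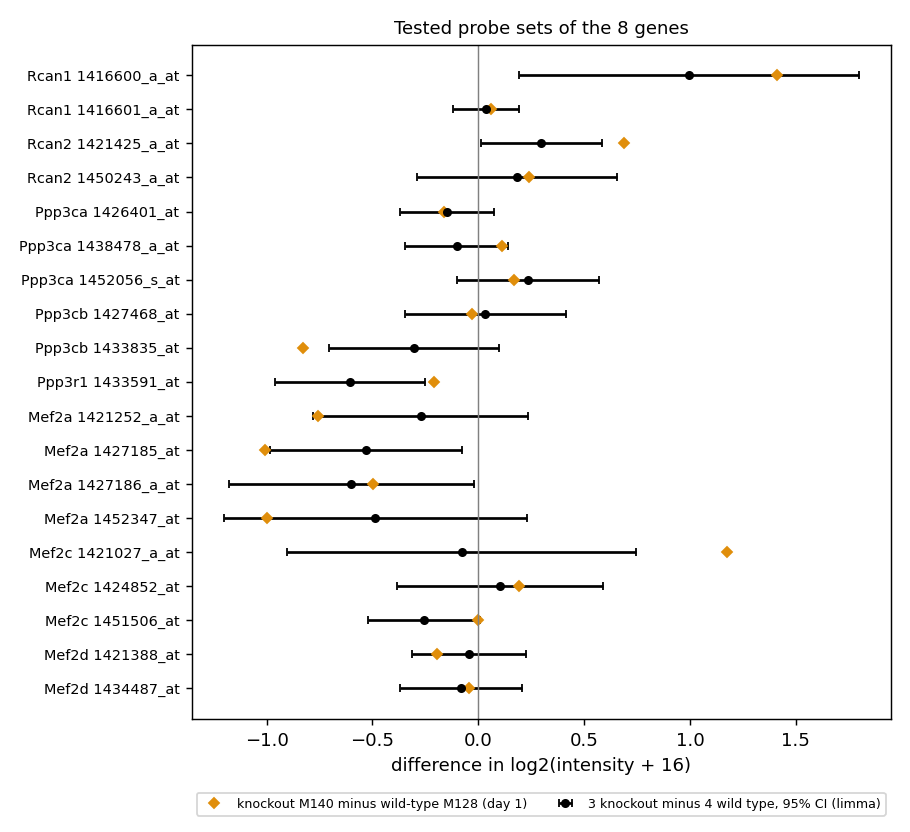
Knockout minus wild type in log2(intensity + 16) for the 19 tested probe sets, as black points with 95% confidence intervals from limma; diamonds are knockout M140 minus wild-type M128, the single pair hybridized on the same day. The interval excludes 0 for 1 probe set each of Rcan1, Rcan2 and Ppp3r1 and for 2 of Mef2a, and none of these passed adjustment over all 13836 probe sets. Of the 2 Mef2a probe sets, 1427186_a_at passed the filter through wild-type arrays alone.

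**Figure D4:**
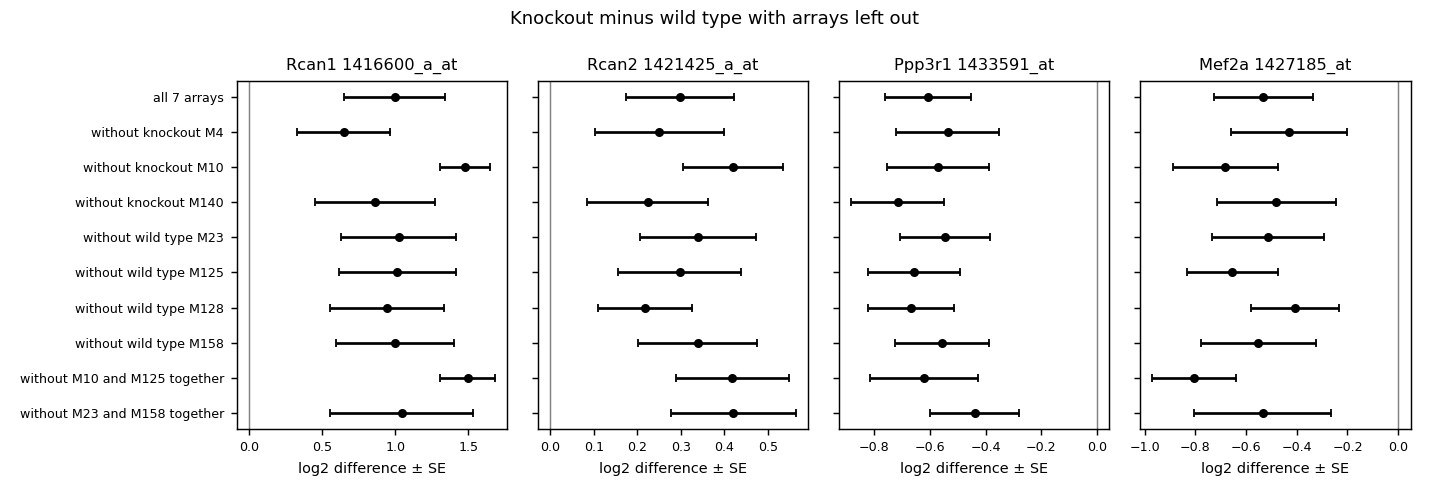
Knockout minus wild type in log2(intensity + 16), ± SE, for 4 probe sets with all 7 arrays and with single arrays or pairs left out; each panel has its own axis. No omission turned the direction of any of the 4, and leaving out knockout M10 moved Rcan1 from 0.99 to 1.48.

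Among 26 further genes of the calcineurin and NFAT pathway, 17 had a named probe set and 14 were tested. None passed an adjusted p of 0.05 by limma, 1 was higher and 0 were lower with an unadjusted p under 0.05 (background 6.74% and 5.4% of genes), and the median difference was 0.13. Nfatc4, an NFAT factor of the heart, read 947 to 1003 in the knockout and 764 to 901 in the wild type without overlap, at 0.23 ± 0.08 (SE; adjusted p = 0.351 by limma). Nfatc2 and Nfatc3 followed at 0.21 and -0.17 (adjusted p of 0.522 and 0.544), both with overlapping groups. Myoz2, the sarcomeric protein that tethers calcineurin at the Z-disc, was at the upper limit on 4 arrays, every knockout array and wild-type M125. It therefore gives no fold, and whether its groups lie apart cannot be read.

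Among 24 regulators and partners of MEF2, 18 of 22 with a probe set were tested. None passed the adjusted threshold by limma, 0 were higher and 2 were lower with an unadjusted p under 0.05 (background 6.74% and 5.4% of genes), and the median was -0.06. Smyd1, a muscle-restricted histone methyltransferase, read 1029, 1028 and 1388 on knockout M4, M10 and M140 and 1199 to 2893 on the wild-type arrays, a difference of -0.73 ± 0.28 (SE; adjusted p = 0.378). Mef2b, the remaining member of the MEF2 family, differed by -0.23 (adjusted p = 0.408). Hdac5, a class II deacetylase that represses MEF2 until it is exported from the nucleus, differed by -0.32 (adjusted p = 0.522), with wild-type M125 highest at 3018. Camk2d and Prkd1, which encode kinases that act in the export of class II deacetylases, read with overlapping groups, at -0.20 and -0.12.

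Muscle genes known as MEF2 targets did not share a direction. Of 14 listed, 13 were tested, with 0 past the adjusted threshold by limma, 1 higher and 3 lower with an unadjusted p under 0.05 (background 6.74% and 5.4% of genes), and a median of -0.01. Mb, Myl2 and Actc1 stood at the limit of the scale on every array, so that no fold can be given. The median of the list is the value of these genes (-0.00606). It therefore reflects the limits of the arrays and not a level of expression. Xirp1, an intercalated disc protein, read 5769 to 8218 in the knockout and 2639 to 4244 in the wild type without overlap, at 0.95 ± 0.20 (SE; adjusted p = 0.196). Ppargc1a, the coactivator of oxidative genes, and Ckm, the muscle creatine kinase, differed by -0.75 and -0.66 (adjusted p of 0.297 and 0.341), with overlapping groups. On wild-type M128, where the brightest Mef2a probe set was highest, the listed targets went both ways. Xirp1 (2639), Myom1 (8543), Jun (1899) and Klf2 (1691) had their lowest values there, and Slc2a4 (7594) its highest. A relation of these genes to Mef2a was not tested.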

How the data were processed

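Left ventricular RNA of 7 mice, 1 array each, was measured on single-colour MOE430A arrays. The deposited values are probe set intensities on a linear scale; no source used here names the software behind them. The values have an upper limit, and their lowest per array is 86.5 to 92.3. Background therefore seems to remain in them, though no source used here says so. An upper limit and remaining background both make differences smaller. The deposited experiment sheets hold other information and no values, and gave the day of hybridization per the file headers. Names came from a GEO platform annotation (20380 probe sets with 1 gene, 691 with several and 1555 with none), and sequences from RefSeq tables of GRCm38.p6.

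Control probe sets (64) were left out. Values were taken as log2(intensity + 16), tested above the 40th percentile on at least 3 arrays, and compared by limma 3.58.1 (lmFit, eBayes with trend, two-sided, no covariate; tested on simulated data), with p-values adjusted by Benjamini-Hochberg over the 13836 probe sets tested, at a threshold of 0.05. A pathway gene was represented by its brightest tested probe set. Named were all member probe sets, the 3 smallest p of each pathway list, and the 5 genes most and 3 least like Rcan1; Nppb, Myoz2, Camk2d, Prkd1 and genes at the upper limit were named after their values were seen. The members and lists were chosen with earlier results of these data known. Alternatives were the offset, normalization, background correction, filter, variance trend, array weights, day block, Myl7 covariate and arrays left out. The number of arrays limits the precision.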

Additional observations from a re-analysis of the deposited data

Results flagged for a closer look

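In 3 of the 19 groups of 4 wild-type arrays, 1 array stood apart from the other 3 by more than 0.829 of the group's range (Dixon's 95% limit). Chance does this in about 1 of 20 groups of normal values without ties, a rate that does not hold where arrays share a value. For Ppp3ca 1438478_a_at, wild-type M158 (1712) accounted for the whole range (1.0), because the other 3 arrays held exactly the same value, 1591. For Ppp3ca 1452056_s_at, wild-type M125 (1163) lay below the others by 0.877 of the range. For Mef2d 1434487_at, wild-type M125 (4732) lay above the others by 0.927 of the range, and M23 and M158 held the same value, 3948.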

How the results depend on the processing

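Of 19 probe sets, 13 kept their direction under every alternative run, Rcan1 1416600_a_at, Ppp3r1 1433591_at and all tested probe sets of Mef2a and Rcan2 among them. The count of the 19 past the threshold was 0; it became 2 with array weights (Rcan1 1.40 and Ppp3r1 -0.75; 4.47% of all tested passed), 0 to 1 with each array left out (1 without M10, where 0.535% of all tested passed), and 5 at an unadjusted p under 0.05 (11.8% of all tested). The Rcan1 difference ran from 0.65 to 1.48 with each array left out. With day as a block, each difference equals that of knockout M140 and wild-type M128, because only day 1 held both groups. The day block therefore compares 1 mouse with 1 mouse and repeats the day 1 values. Directions turned with the day block for Ppp3ca 1438478_a_at (0.11), Ppp3cb 1427468_at (-0.029), Mef2c 1421027_a_at (1.18) and Mef2c 1451506_at (0.00048, from -0.26 with all arrays), without M10 and M125 for Mef2c 1421027_a_at (0.42), and without M23 and M158 for Ppp3cb 1427468_at (-0.21); the cause was not tested. With each array left out, Ppp3cb 1427468_at ran from -0.11 to 0.13, Mef2c 1421027_a_at from -0.54 to 0.28, Mef2c 1424852_at from -0.058 to 0.22 and Mef2d 1421388_at from -0.13 to 0.0077. Without turning, Ppp3ca 1426401_at ran from -0.18 to -0.072 and Ppp3ca 1438478_a_at from -0.20 to -0.032. With the 60th percentile filter, dimmer probe sets were not tested. No paired analysis was possible because the groups share no mouse numbers. The upper limit touched none of the 23 probe sets, and those nearest the 40th percentile have little signal over background.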

Other observations

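The probe set assigned to Ppp3r1 together with a second gene read 106 to 115 on the knockout arrays and 117 to 130 on the wild-type arrays, near the lowest values of the arrays, and was not tested. Exactly equal values on at least 2 arrays occurred in 7 of the 23 probe sets and in 49.9% of all probe sets. Mef2d 1434487_at held 3948 on 4 of the 7 arrays.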
